A study of Vitis vinifera with 7 samples.

Results

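Of 28811 probes measured in grape berries, 136 (0.472%) had a signal that dipped at veraison and was up again when the berries were ripe. They were chosen by their values. On the log2 scale, the highest of the 3 veraison values had to lie at least 1 (2-fold) below the lowest of the 3 green values, and the ripe value had to lie at least 1 above the highest veraison value. The fall and the recovery are therefore the rule itself and are described below without a test.

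The berries were of Sauvignon blanc, a white-skinned cultivar of Vitis vinifera, and total RNA of berry tissue was labelled with Cy3 and hybridised to 1-colour NimbleGen arrays. Green berries (EL-31 on the Eichhorn-Lorenz scale of grapevine growth) had 3 arrays, veraison (EL-34) had 3 and ripe berries (EL-38) had 1. The tissue of a stage was ground and pooled, and each array carried its own RNA extraction from an aliquot of that pool, so the spread between arrays is that of extraction, labelling and hybridisation and leaves out vines, bunches and berries. No treatment, vineyard or season is named, and the labels do not say whether seeds were removed.

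Grape berries grow in phases separated by a pause. Veraison ends that pause: the berry softens, sugars start to accumulate, organic acids decline and, in coloured cultivars, the skin begins to colour. Many transcripts of the green berry are known to fall at this point, among them those of photosynthesis and of early tannin synthesis, and a ripening programme is switched on. A transcript that falls at veraison and returns later follows neither of these main courses. In pooled tissue, fewer cells of a type and less RNA per cell cannot be told apart.

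The RefSeq gene table of the species lists 0 of the 28811 probe identifiers, and the files do not pair them with genes. The group is therefore described by its signals and by its place in the identifier order, and 4 identifiers are printed. For the same reason neither pathway lists nor markers of the labelled tissue were examined, and no sequence is shown. The arrays had medians between 9.17 and 9.22. Veraison extraction 2 stood apart, with an SD of the difference over all probes of 0.60 and 0.53 log2 to extractions 1 and 3. These differed by 0.20 from each other. The size of the group is given with and without extraction 2, and other results use all 7 arrays unless stated.

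The group was a small part of each step. The condition on green was met by 2356 probes, of which 5.77% also met the condition on ripe. Among those 2356, the ripe value lay less than 1 above the highest and less than 1 below the lowest veraison value in 1769 (75.1%), and it lay at least 1 below the lowest in 451 (19.1%). The condition on ripe was met by 1540 of the 28811 probes, of which 8.83% were members. Both shares lay near the share of all 28811 probes that met the other condition (1540 for ripe and 2356 for green). The overlap is therefore given as a count only. The mirror pattern, a peak at veraison cut by the same margins, held 306 probes, or 15.5% of the 1974 that rose by that margin at veraison. The share of all probes whose ripe value fell by that margin is not given here. The 15.5%, 19.1% and 75.1% are therefore descriptions, and 15.5% is not compared with 5.77%.

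Members were of middling brightness in green berries, dim at veraison and near the middle of the array again when ripe. Their median log2 signal was 10.43, 10.49 and 10.24 on green arrays 1 to 3. It was 7.41, 7.73 and 7.61 on veraison arrays 1 to 3, and 9.48 on the ripe array. Among all probes of the same array these medians corresponded to median percentile ranks of 60.1 to 62.7 for green, 35.5 to 38.6 for veraison and 52.6 for ripe. The median member thus went from above the middle of the array to well below it and back to just above. On all 3 veraison arrays 15 of the 136 members were under the 25th percentile of the array, against 21.3% of all probes. That percentile lay between 6.20 and 6.30 over the 7 arrays. No member was under it on all 3 green arrays, against 22.8% of all probes, and none on the ripe array. The rule asks green and ripe values to lie well above veraison, so these counts follow in part from the choice. No detection call was used, so for the 15 members under that percentile at veraison the size of the dip depends on dim signals there. With 50 added to the linear signal, which shrinks dim differences, 88 probes met the rule.

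**Figure D1:**
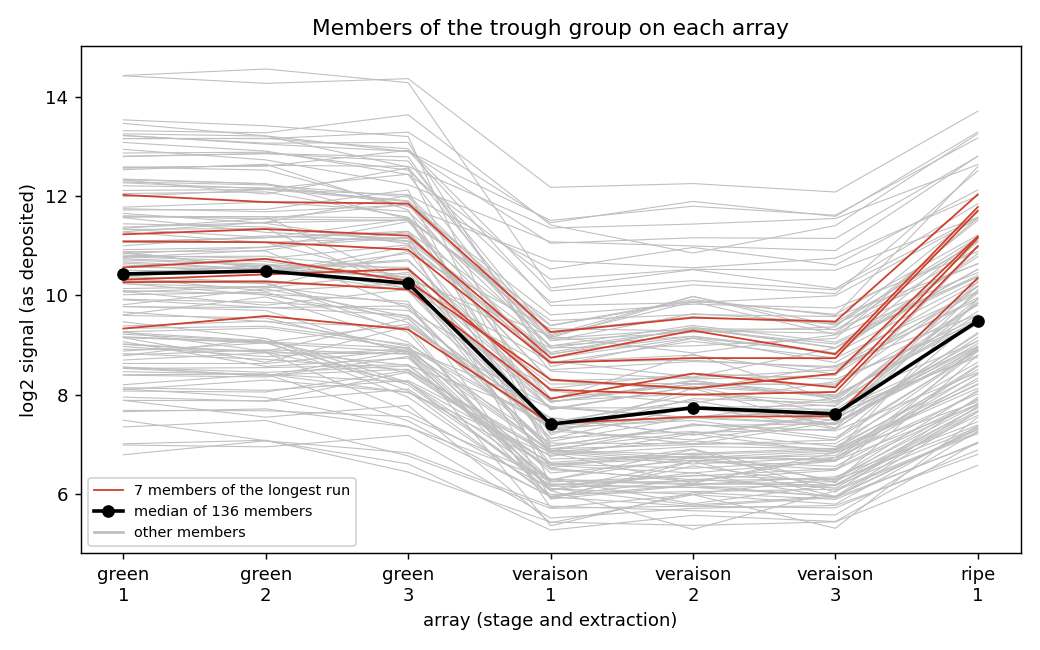
Log2 signal (vertical axis) of each of the 136 members on each of the 7 arrays (horizontal axis), with 1 line per member, the 7 members of the longest run of neighbouring identifiers in red and the median in black. The median falls from 10.24 to 10.49 on the green arrays to 7.41 to 7.73 on the veraison arrays and stands at 9.48 on the ripe array.

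The fall was mostly deeper than the recovery. By stage means, the veraison minus green difference ran from -6.18 to -1.15 log2 with a median of -2.37, a 5.17-fold fall. The ripe minus veraison difference ran from 1.07 to 3.001 with a median of 1.57, a 2.97-fold rise. Margins, the gaps between the nearest values, show the same imbalance: the green margin was the larger in 94 members and the ripe margin in 42. The green margin reached 2 in 62 members, 3 in 17 and 5 in 3. The ripe margin reached 2 in 22 and 3 in 0, so no member came back by 8-fold or more from its highest veraison value. Both margins reached 2 in 12 members.

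The deepest trough, by the smaller of the 2 margins, belonged to a probe with green values of 11.35, 11.55 and 11.83. At veraison it read 8.48, 8.32 and 8.39, and when ripe 11.09. All 3 veraison values lay within 0.16 of each other and the nearest other value was 2.62 above them. The next deepest read 10.92, 10.97 and 11.16 in green berries, 6.91, 6.99 and 7.09 at veraison and 9.56 when ripe, a 16.3-fold fall by stage means followed by a 5.90-fold rise. At the other end, the member nearest to the green limit had a green margin of 1.002 and the member nearest to the ripe limit a ripe margin of 1.005. Just outside lay a probe with a green margin of 0.999 and a probe with a ripe margin of 0.993, so the border of the group runs through a continuous range of values.

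The brightest member at veraison never became dim. It read 14.42, 14.27 and 14.37 in green berries, 12.18, 12.25 and 12.08 at veraison and 13.71 when ripe. The dimmest member at veraison read 7.01, 7.08 and 6.44 in green berries, 5.43, 5.37 and 5.44 at veraison and 6.58 when ripe, so its whole course ran in the lower part of a scale that spans 4.06 to 15.99. Its ripe value lay inside the range of its green values.

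How far the ripe berry returned to the green level is a difference whose sign and size the rule does not fix. It compares green and ripe each with veraison. Both terms of the difference entered the choice, however, since the lowest green value and the ripe value had to clear the margin. Ripe berries were below green berries in 107 members and above them in 29. The ripe array lay below all 3 green arrays in 94 members, inside their range in 21 and above all 3 in 21. Over all probes the ripe array was below all green arrays in 37.9% and above all of them in 49.6%. The difference was tested with limma on the whole table, with Benjamini-Hochberg adjustment over all 28811 probes and the ripe array assumed to vary like the others, since it has no replicate. At an adjusted p under 0.05, 80 members (58.8%) were called, 70 lower and 10 higher when ripe. Of all 28811 probes, 53.1% were called, 22.4% lower and 30.7% higher. A test against a 2-fold change called 14 members (10.3%), all lower, and 18.3% of all probes, 9.05% lower and 9.28% higher. The same arrays chose the members, so these shares describe the group and are no independent evidence of its direction.

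The median ripe minus green difference of the members was -0.69 log2, against 0.13 over all probes. Expressed as the part of the fall that was regained on the log2 scale, recovery ran from 20.1% to 194% with a median of 69.7%. It was under 50% in 27 members, between 50% and 100% in 80, and 100% or more in 29. Green and ripe levels of the members were correlated across probes (Pearson's r = 0.81, n = 136, against 0.84 over all probes), where each probe's own brightness enters both values and probes are not independent replicates.

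In 54 members the ripe level stayed at least 2-fold below green, and 53 of these were called. They started from a median green level of 10.82, fell to 7.27 and came back to 8.996, a median rise of 1.43 after a median change of -2.92. In 79 members ripe and green differed by less than 2-fold, and 24 of these were called. Their medians were 10.22, 7.82 and 9.84, with a median rise of 1.64 after a change of -2.05. The other 3 members were at least 2-fold above green when ripe, and all of them were called. These classes are cut on the sum of the fall and the rise, and the rule sets a floor under both, so their medians are given as a description only.

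The largest shortfalls were in VitusP00115944 and VitusP00168983. Both were picked as extremes of a difference whose terms the rule had used, so their p-values are a description. VitusP00115944 read 13.54, 13.42 and 13.20 in green berries, 6.96, 7.40 and 7.27 at veraison and 8.45 when ripe. Its ripe level lay far below green (ripe minus green difference -4.94 log2, SE 0.22, limma adjusted p 5.9e-06), or 30.6-fold lower, although the return from veraison was 2.36-fold. VitusP00168983 read 11.72, 11.73 and 12.12 in green berries, 6.19, 6.13 and 5.95 at veraison and 7.32 when ripe, with a ripe minus green difference of -4.54 (SE 0.21, limma adjusted p 7.0e-06). Both met the rule but regained only 20.1% and 21.3% of their fall. The veraison values of VitusP00168983 were under the 25th percentile of their arrays, so its fall and the part regained depend on dim signals. Their ripe level stayed nearer to the veraison level than to the green level.

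The largest overshoot was in VitusP00001418, which read 8.53, 8.39 and 8.51 in green berries, 6.76, 7.21 and 6.84 at veraison and 9.92 when ripe. Its ripe minus green difference was 1.45 (SE 0.21, limma adjusted p 0.0011), or 2.73-fold. This call was lost in the test against a 2-fold change (limma adjusted p 0.15), with a range of 1.3e-04 to 0.15 over 15 alternatives. VitusP00088844 read 9.33, 9.58 and 9.31 in green berries, 7.42, 7.56 and 7.57 at veraison and 10.35 when ripe, a difference of 0.94 (SE 0.17, limma adjusted p 0.0032). Its difference was less than 2-fold, so the same test, which asks for more, could not call it and the call was lost there. In the other 14 alternatives the call held, with a lowest limma adjusted p of 0.0017. In both probes the ripe value lay above every green value and every green value above every veraison value. These probes too were picked by the size of this difference, so their p-values are a description.

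**Figure D2:**
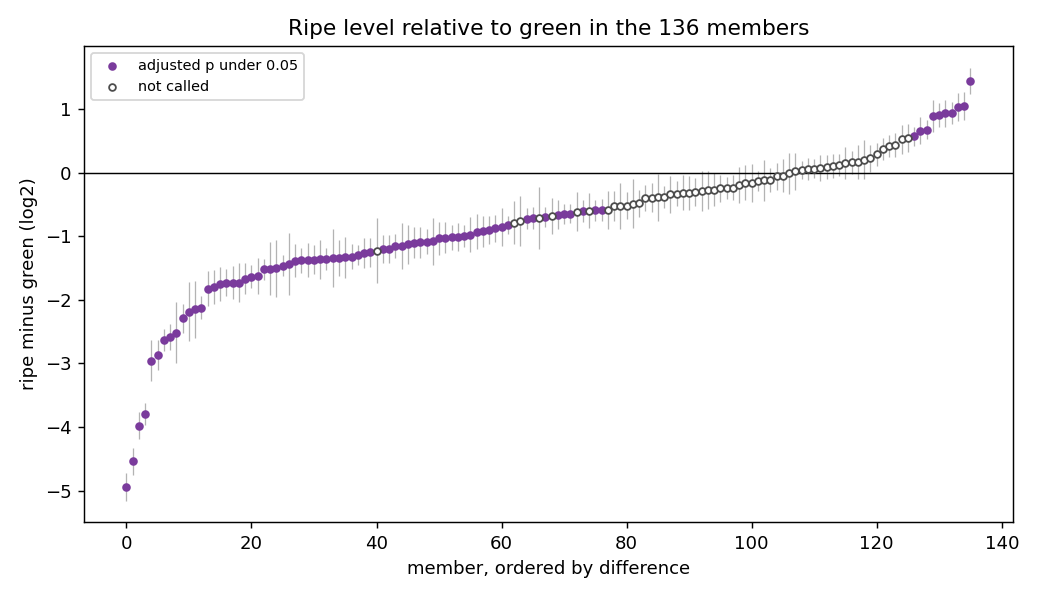
Ripe minus green difference (log2, vertical axis) of the 136 members in rising order, with bars of 1 standard error from limma. Filled points are the 80 members called at an adjusted p under 0.05, and the differences run from -4.94 to 1.45 with 107 below 0.

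Some members ended close to their green level on the 1 ripe array. The 3 members with the smallest difference were at 7.05, 9.84 and 12.59 on average in green berries and at 7.04, 9.86 and 12.64 when ripe, with limma adjusted p of 0.98, 0.96 and 0.83. A missed threshold does not show equal levels: over the members the median standard error of the difference was 0.22 log2, and the smallest difference that was called was 0.57.

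Members were not scattered evenly over the list of identifiers. What the identifier number stands for is not given in the sources used here, but it carries information, because neighbours in the sorted list behaved alike: across all pairs of adjacent identifiers the veraison minus green differences were correlated at r = 0.14, against 0.02 for identifiers 5 places apart and 0.00 for those 10 apart. Within 5 places on either side of a member, 60 of 1360 places (4.41%) held another member, while members made up 0.472% of the list. The longest run contributes much of this. Without its 7 members the share was 2.48% (32 of 1290), against 0.448%. The mirror group showed 3.79% against 1.06%, and probes that fell at veraison without recovery 12.1% against 7.71%. The pattern was noticed in these data and the 5 places were set afterwards, so it is given as counts. Whether neighbouring identifiers share sequence, and so signal, was not tested.

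Linking members at most 5 places apart gave 8 runs with 26 members (19.1%): 3 runs of 2, 3 of 3, 1 of 4 and 1 of 7. The run of 7, which includes VitusP00088844, covered 12 consecutive identifiers. Its members had mean levels of 9.41 to 11.92 in green berries, 7.51 to 9.43 at veraison and 10.35 to 12.03 when ripe. All 7 ended above green, by 0.12 to 0.94 log2, which the rule does not ask for, and 5 of the 7 were called higher (limma adjusted p 0.0032 to 0.036 for these and 0.097 and 0.60 for the other two). Of the 129 remaining members 22 were above green and 5 were called higher, and 30.7% of all probes were called higher. The 1 ripe value in this difference is also the value that the rule asked to be high, and the run was found among the members so chosen. Its excess over green is therefore a description and no independent evidence. The rise from veraison in this run was 2.61 to 3.001 log2, and the largest rise of the whole group, 8.003-fold, was in it: that member read 11.09, 11.07 and 10.92 in green berries, 8.64, 8.74 and 8.73 at veraison and 11.71 when ripe.

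The 5 other identifiers inside that stretch did not form a group. The nearest to membership read 9.25, 9.45 and 9.09 in green berries, 8.18, 7.33 and 8.36 at veraison and 10.48 when ripe, and it missed the green margin with 0.73. Another rose at each stage, with means of 11.17 and 12.06 and a ripe value of 12.59, and another stayed near the floor of the scale with 4.86, 5.04 and 4.96. The remaining pair fell when ripe, to 8.24 and 6.38, and in both of these veraison extraction 2 was far below extractions 1 and 3 (7.88 against 11.16 and 10.76, and 6.80 against 8.65 and 8.43).

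**Figure D3:**
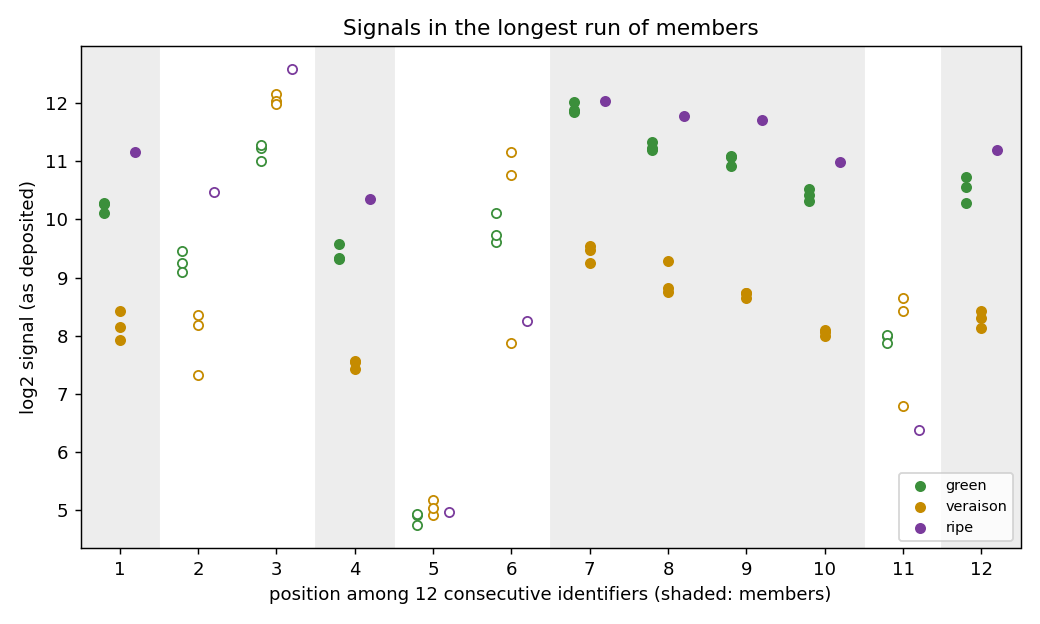
Log2 signal (vertical axis) at the 12 consecutive identifiers of the longest run (horizontal axis, position in the sorted list), with each array as a point, coloured by stage. Members are filled and shaded, and in each of the 7 the ripe point lies above the veraison points by 2.61 to 3.001 log2 from their mean.

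The members of the run of 4, on 5 consecutive identifiers, had mean levels of 8.72 to 13.02 in green berries, 5.80 to 9.24 at veraison and 7.22 to 11.67 when ripe. All 4 ended below green, by 1.33 to 2.95 log2, and all 4 were called lower (limma adjusted p 3.4e-04 to 0.020), as were 51.5% of all members and 22.4% of all probes. The brightest of them read 13.25, 13.21 and 12.58 in green berries, 9.09, 9.26 and 9.36 at veraison and 11.67 when ripe, which also placed it among the 6 deepest troughs. The 3 runs of 3 were not alike: differences between ripe and green ran from -0.06 to 0.42 in the first, from -1.32 to -0.33 in another and from -1.43 to 1.04 in the last, so neighbours with a common trough could differ in how far they returned.

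The median SD of the members between extractions was 0.18 in green berries (n = 3) and 0.17 at veraison (n = 3), against 0.14 and 0.19 over all probes. The arrays were not interchangeable. Green extraction 3 gave the lowest green value in 82 members (60.3%, against 34.8% of all probes), and veraison extraction 2 the highest veraison value in 79 (58.1%, against 54.7% of all probes). Extraction 2 was at least 0.5 above the mean of extractions 1 and 3 in 14 members (10.3%) and at least 0.5 below it in 3 (2.21%), against 12.4% and 12.02% of all probes. The widest spread was in a member that read 7.90, 8.82 and 7.87 at veraison, between green values of 10.38, 10.55 and 10.37 and a ripe value of 10.05.

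Each green or veraison array was then left out in turn, the rule applied to the other 6, and the margin read on the array that had not been used. A left-out green value had to lie at least 1 above the highest veraison value. A left-out veraison value had to lie at least 1 below both the lowest green value and the ripe value. The shares of green and veraison arrays are therefore not like for like. Probes chosen in this way met the margin on green array 1 in 99.3% (136 of 137), on green array 2 in 94.4% (136 of 144) and on green array 3 in 78.6% (136 of 173). The shares over all probes were 10.4%, 10.4% and 9.49%. On veraison array 1 the margin was met by 95.1% (136 of 143), on array 3 by 87.7% (136 of 155) and on array 2 by 53.1% (136 of 256), against 1.31%, 0.979% and 0.871% of all probes. The probes that pass are the 136 members each time by construction. The ripe array has no replicate and could not be left out, so the recovery rests on 1 array throughout.

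Without veraison extraction 2 the group held 256 probes in place of 136. The 120 added probes had median values of 7.83 and 7.98 on veraison arrays 1 and 3, 8.48 on array 2, 10.19 for the green mean and 9.52 on the ripe array. On array 2, 68 of them missed only the ripe margin, 30 only the green margin and 22 both. Extraction 2 exceeded the mean of the other two by 0.13 to 1.23 log2, with a median of 0.49, and it lay nearer to the ripe value than to that mean in 21. By the way these 120 were found, extraction 2 had to be the highest of the veraison values in each, so this excess restates the choice. Its value was below every green value and below the ripe value in all 120. These were chosen with green and ripe at least 1 above arrays 1 and 3, so this count follows in large part from the choice. No share over all probes is given for it.

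**Figure D4:**
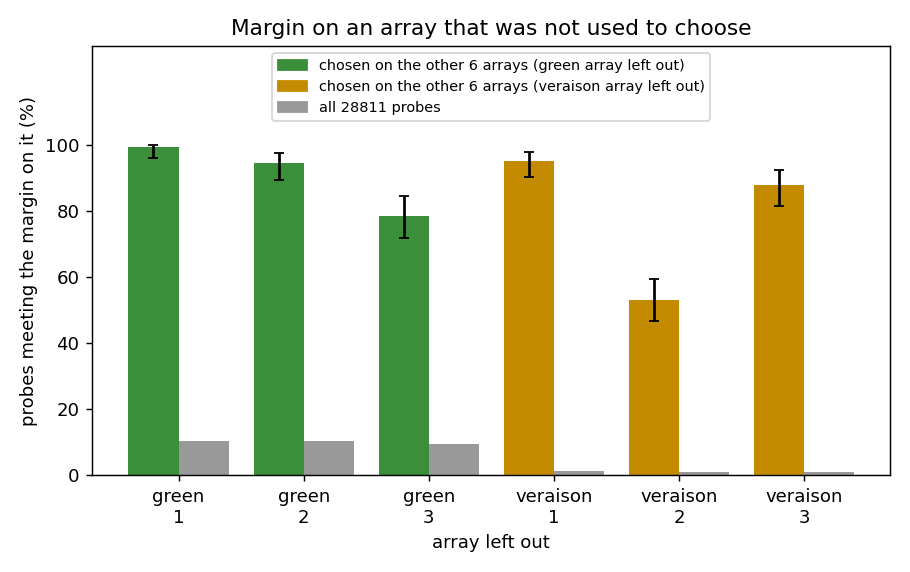
Share of probes (%, vertical axis) that meet the margin on an array left out of the choice (horizontal axis), for probes chosen on the other 6 arrays (coloured by stage, with exact 95% binomial intervals that cover counting over probes only) and for all probes (grey). The intervals treat probes as independent, which they are not, and the passing probes are the same 136 each time. They therefore give no precision for an array. The share is 53.1% for veraison array 2 and 78.6% to 99.3% for the other arrays. A left-out green array was set against veraison only, a left-out veraison array against both green and ripe.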

How the data were processed

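The deposited table holds log2 signals, 1 per probe identifier and array. The authors used RMA (robust multi-array average, which corrects, normalizes and summarises array signals), per the submitters' processing notes. Its settings, the scanner and detection calls are not given in the sources used here, and log2 was read from the range of the values. All 7 columns were matched to samples, and the deposited scaling was kept.

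The members and the lists of named probes were chosen with earlier results of these data known. Ripe was compared with green by lmFit and eBayes in limma 3.58.1 (R 4.3.3), with stage as the only term over all 7 arrays, two-sided, after a test on simulated data. Probes were named by fixed ranks: the deepest troughs, the highest, lowest and smallest ripe minus green differences, the brightest, dimmest and most variable at veraison, and those nearest either side of each limit. Of these, 4 identifiers are printed, since none could be paired with a gene. The planned gene lists could not be computed for that reason. P-values set a difference between the pools of the stages against the spread between extractions of the same pool. A difference between pools cannot be told apart from one between stages. Arrays have no read depth, and precision is limited by how few there are.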

Additional observations from a re-analysis of the deposited data

How the results depend on the processing

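The size of the group depended on the limits more than on scaling. Against 136 probes, quantile normalization gave 128 and a common 75th percentile gave 143. Adding 50 to the linear signal, a step that shrinks dim differences by design, gave 88. With margins of 0.5, 1.5 and 2 it was 528, 38 and 12, and with stage means in place of extremes 315. Leaving out single arrays gave 137 to 256 probes, the highest without veraison extraction 2. The count of 80 members called between ripe and green stayed within 1.5 times its value under every alternative except limma's test against a 2-fold change, which called 14 members, all lower, and 5281 probes of the table, against 15310. Leaving out single arrays gave 67 to 90 members and 13133 to 18551 probes, and the median difference of the members then ran from -0.74 to -0.64. With the replicate number as a block 62 members (45.6%) and 12818 probes of the table (44.5%) were called. Deviations of equally numbered green and veraison extractions correlated at r = -0.21, -0.12 and 0.05, so the block rests on a shared number only. Of the fits that left out 1 array, the most members were called without green extraction 3. The most probes of the table were called without veraison extraction 2, where the called share of the members was close to that of all probes. All 7 members of the longest run stayed in the group and above green under the 3 rescalings. The share that met the margin on green array 1 was 100% with 50 added, against 99.3%. VitusP00115944 and VitusP00168983 stayed past the threshold in all 15 alternatives (limma adjusted p 7.7e-07 to 4.1e-04 and 1.9e-06 to 5.1e-04), and VitusP00001418 and VitusP00088844 in 14.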
